A study of Mus musculus with 12 samples.

Results

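The lectican proteoglycans and their partners in the perisynaptic matrix were followed as 10 genes, taken by symbol from the 56791 gene names of the deposited expression table: the 4 lecticans Bcan, Ncan, Vcan and Acan, the transmembrane proteoglycans Ptprz1 and Cspg5, the tenascins Tnr and Tnc, the link protein Hapln1 and the hyaluronan synthase Has2. All 10 were found, each on 1 protein-coding row. Messenger RNA was sequenced from hippocampal cells of adult naive male mice, sorted with an antibody to ACSA-2, a surface antigen of astrocytes. Control mice (Ctrl) carried the floxed gene alone (Tnfrsf1bfl/fl), and conditional knockout mice (cKO) carried it with a Cre driver (GfapcreERT2:Tnfrsf1bfl/fl). Tnfrsf1b encodes TNFR2, a receptor for tumour necrosis factor, and the study asked how loss of this receptor from astrocytes bears on hippocampal synapses. Both genotypes shared the floxed allele, and the Cre was driven by the promoter of Gfap, which is also active in neural stem cells of the adult hippocampus. CreERT2 is a form of Cre that acts after tamoxifen, and the labels give no tamoxifen dose, time or exact age.

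Each genotype held 3 A numbers, A1, A2 and A8 in Ctrl and A4, A9 and A10 in cKO, and each A number had a library S1 and a library S2, which makes 12 libraries. The labels do not say whether an A number is 1 animal or a pool. S1 and S2 were therefore averaged, each genotype had n = 3, and genotype p-values from these averages measure only the spread between A numbers. Fits on the 12 libraries are named where they are used. Values are FPKM, fragments per kilobase of gene length per 1000000 assigned, so that levels of different genes can be set side by side.

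Lecticans are chondroitin sulfate proteoglycans that bind hyaluronan at one end and tenascins at the other, and link proteins hold the lectican on the hyaluronan chain. The resulting mesh fills the space around synapses and condenses into perineuronal nets around some neurons. In the brain, astrocytes and cells of the oligodendrocyte lineage make much of its brevican, neurocan and receptor-type phosphatase zeta, while tenascin-R comes largely from oligodendrocyte lineage cells and some neurons.

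The members lie on 9 chromosomes of the deposited table. The submitters' processing notes name mm10 and GRCm38, but start and end in the table match the GENCODE M21 models of that build for 0 of the 10 members, so the positions that follow are the table's own and their build is unsettled. Bcan (ENSMUSG00000004892) is on chromosome 3 from 87894838 to 87907537, Ncan (ENSMUSG00000002341) on 8 from 70545735 to 70573523, Acan (ENSMUSG00000030607) on 7 from 78703231 to 78764847, and Vcan (ENSMUSG00000021614) and Hapln1 (ENSMUSG00000021613) on 13 from 89803431 to 89890628 and from 89687915 to 89759771. Ptprz1 (ENSMUSG00000068748) is on 6 from 22875501 to 23052915 and Cspg5 (ENSMUSG00000032482) on 9 from 110072851 to 110091644. Tnr (ENSMUSG00000015829) is on 1 from 159351339 to 159759299, Tnc (ENSMUSG00000028364) on 4 from 63878022 to 63965252, and Has2 (ENSMUSG00000022367) on 15 from 56529023 to 56557935. Ncan, Bcan, Vcan, Tnc and Has2 are on the minus strand.

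The 250 bases upstream of the annotated start are shown for 3 genes with the same lowest and highest A number (Bcan, Ptprz1, Hapln1) and for Tnr, which varied in another way. The letters are those of RefSeq on GRCm38.p6, written 5′ to 3′ on the strand of the gene. Capitals mark a GC box (GGGCGG) or a SOX core (ACAAAG), either of them on one or the other strand.
Bcan, minus strand, chr3:88000357-88000606: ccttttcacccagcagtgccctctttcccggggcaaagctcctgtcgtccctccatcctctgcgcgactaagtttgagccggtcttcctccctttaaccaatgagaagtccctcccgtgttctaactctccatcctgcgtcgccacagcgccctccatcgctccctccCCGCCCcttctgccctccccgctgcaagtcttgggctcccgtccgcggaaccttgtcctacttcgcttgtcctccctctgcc
Ptprz1, plus strand, chr6:22875252-22875501: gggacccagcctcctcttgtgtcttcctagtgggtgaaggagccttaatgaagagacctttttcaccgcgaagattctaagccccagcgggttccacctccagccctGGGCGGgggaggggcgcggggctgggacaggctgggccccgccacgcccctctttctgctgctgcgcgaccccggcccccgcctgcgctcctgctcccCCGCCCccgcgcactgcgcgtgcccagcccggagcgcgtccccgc
Hapln1, plus strand, chr13:89540386-89540635: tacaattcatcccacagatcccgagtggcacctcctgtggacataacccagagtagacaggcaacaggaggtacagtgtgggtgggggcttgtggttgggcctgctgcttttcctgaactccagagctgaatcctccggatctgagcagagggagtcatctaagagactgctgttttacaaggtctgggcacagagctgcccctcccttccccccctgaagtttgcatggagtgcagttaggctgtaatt
Tnr, plus strand, chr1:159523519-159523768: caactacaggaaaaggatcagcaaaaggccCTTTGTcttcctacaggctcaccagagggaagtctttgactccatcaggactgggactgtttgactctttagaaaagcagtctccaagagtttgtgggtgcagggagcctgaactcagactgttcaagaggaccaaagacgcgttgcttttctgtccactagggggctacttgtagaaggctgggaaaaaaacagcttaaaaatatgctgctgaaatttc

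Windows were matched for 8 of the 10 genes, all but Cspg5 and Has2. Base composition differed widely among the windows shown. G and C made up 71.6% of the Ptprz1 window and 62% of the Bcan window, against 54.4% for Hapln1, 46.8% for Tnr and a median of 52.4% over 32851 windows of this length. CpG dinucleotides numbered 22 in Ptprz1 and 16 in Bcan, but 2 each in Hapln1 and Tnr. Both strands were searched for 6 motifs: the GC box, the SOX core, an NFI half-site, a TATA box, an AP-1 site and the kappaB site. The half-site of NFI, a factor of astrocyte genes, was read as TTGGCA and found in 12.3% of all windows and in a window of Ncan and of Tnc. The TATA box, read as TATAAA, was in 12.4% and also in windows of Ncan and Tnc. The AP-1 site, read as TGANTCA, was in 6.75% and in no window of these genes. The kappaB site was in 7.25% and in the window of Acan, at position -95. The GC box was in 32.7% of all windows and in those of Ncan, Bcan, Vcan, Acan, Ptprz1 and Tnc. The SOX core was in 16.5% of all windows and, among these 8 genes, in that of Tnr alone, at position -220 from the start. The Hapln1 window held none of the 6. These matches describe letters only.

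The 12 libraries held 17311872 to 22025823 recovered reads in S1 and 28096485 to 35323334 in S2. Astrocyte genes were at the top of the table, with Slc1a2 (the main glial glutamate transporter) at a mean of 1687 FPKM and Glul at 989.8 FPKM, and all 12 astrocyte markers passed the filter on low values. Oligodendrocyte transcripts were also present and lay lower in cKO: the 10 markers summed to between 1049 and 2273 FPKM in Ctrl and between 302 and 720 FPKM in cKO. Their mean log2(FPKM + 1) was 6.52 ± 0.639 in Ctrl and 4.73 ± 0.652 in cKO (SD, n = 3), with every cKO value below every Ctrl value, and the two-sided exact permutation test gave p = 0.1, the smallest that 3 against 3 allows. In bulk samples, fewer cells of a type and less RNA per cell cannot be told apart. Microglial markers were low in both genotypes (summed FPKM 3.44 to 4.20 in Ctrl and 6.43 to 15.6 in cKO, with no overlap), as were neuronal (8.43 to 14.6 and 5.37 to 11.3) and fibroblast ones (4.52 to 7.31 and 5.13 to 13.3). Mural (45.1 to 75.6 and 63.5 to 83.3), ependymal (59.7 to 229 and 50.8 to 149), endothelial (3.84 to 45.9 and 3.86 to 32.6) and stem or progenitor markers (52.8 to 70.9 and 68.6 to 88.4) overlapped between genotypes, and no listed marker was at 0 in all libraries. Control A8 stood apart from the other A numbers on the first principal component (75.6, against -37.9 for A1 and -43.3 for A2). The targeted gene, Tnfrsf1b, was at 0 in 9 of 12 libraries. It had 4 reads in A1 S1 of Ctrl, and 10 and 22 reads in S1 and S2 of A4, which is labelled cKO. Reads summed over the whole gene cannot show whether the floxed part was lost. Microglial markers had their highest mean log2(FPKM + 1) in A4 (1.30), and their part in these reads was not tested. The name cKO therefore stands for the libraries labelled cKO throughout. Values without A8 and without A4 are given where they matter.

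By mean FPKM over the 12 libraries the order was Bcan (279.7), Ptprz1 (193), Ncan (90.8), Cspg5 (77.9), Hapln1 (32.8), Tnc (6.93), Vcan (3.74), Tnr (2.48), Has2 (0.196) and Acan (0.0306). The first 5 kept their places in all 6 A numbers. Bcan ranked between 68 and 95 of all names in every library, and Ptprz1 between 96 and 122. Neighbours in this order were not always separate: Ncan was above Cspg5 in 12 of 12 libraries although their ranges over libraries overlapped, Vcan was above Tnr in 8 of 12, and Has2 above Acan in 8 of 12.

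**Figure D1:**
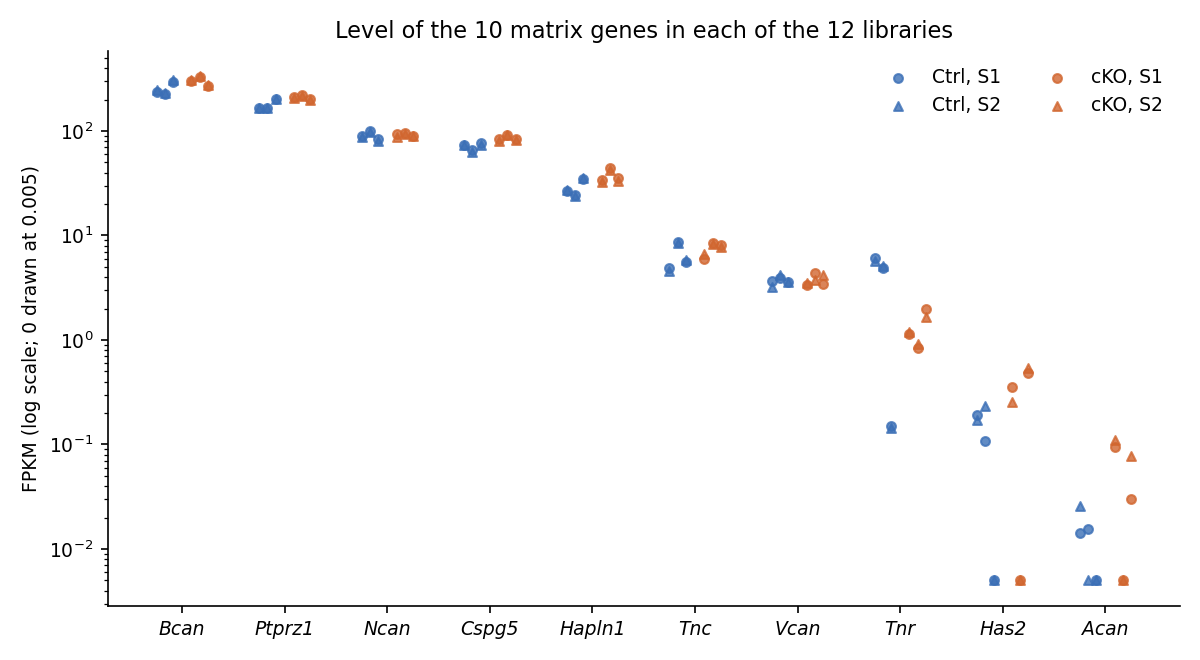
FPKM of the 10 genes in each of the 12 libraries on a log axis, with Ctrl and cKO in different colours and values of 0 drawn at 0.005. Bcan lies highest in every library, Has2 and Acan lie lowest, and Tnr has the widest spread of the genes above them.

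None of the 10 genes differed between genotypes at an adjusted p below 0.05. For 8 genes with a mean of at least 1 FPKM this was tested with limma on log2(FPKM + 1) over 17540 genes with Benjamini-Hochberg adjustment; Acan and Has2 fell under that level. In the same test 0% of all genes passed (0 of 17540, with 1349 or 7.69% at an unadjusted p below 0.05), so 0 of 8 is also the background. The same fit on the 12 libraries with the A number as random effect called 112 genes (0.639%), or 80 (0.456%) with a replicate block for the S number, and voom on the recovered reads called 0. None of these fits called any of the 8. Estimates were above 0 for 7 of the 8, beside 49.2% of all genes, with a median log2 difference of 0.24 beside -0.01 over all genes.

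Bcan encodes brevican, the most abundant lectican of adult brain matrix. It measured 239.9 FPKM in A1, 228 FPKM in A2 and 301 FPKM in A8 of Ctrl, and 305 FPKM in A4, 332 FPKM in A9 and 272 FPKM in A10 of cKO. A8 lay among the cKO values, so the genotypes overlapped. The means were 256 ± 38.9 FPKM for Ctrl and 303 ± 30.03 FPKM for cKO (SD, n = 3), a log2 difference of 0.25 (SE 0.14, 95% interval -0.10 to 0.59, limma adjusted p = 0.782). Without A8 the difference was 0.37 (adjusted p = 0.266), and without A4 it was 0.24. It was lower without A2 (0.17) and without A9 (0.18).

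Ptprz1 encodes receptor-type protein tyrosine phosphatase zeta, whose shed and secreted forms include the matrix proteoglycan phosphacan. Ctrl values were 166 FPKM in A1, 166 FPKM in A2 and 201 FPKM in A8, and cKO values were 209.6 FPKM in A4, 218 FPKM in A9 and 200.2 FPKM in A10. A1 and A2 lay below every cKO value, and A8 lay just above A10. Means of 178 ± 20.53 FPKM in Ctrl and 209 ± 8.93 FPKM in cKO gave a log2 difference of 0.24 (SE 0.12, 95% interval -0.04 to 0.52, limma adjusted p = 0.718), which was 0.33 without A8 (adjusted p = 0.211). Leaving out A1 or A2 gave 0.19.

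Cspg5 encodes neuroglycan C, a transmembrane proteoglycan with an EGF-like domain. It measured 73.0 FPKM in A1, 64.1 FPKM in A2 and 75.02 FPKM in A8, and 82.1 FPKM in A4, 91.1 FPKM in A9 and 82.4 FPKM in A10. It was the one gene of the 8 whose cKO values all lay above the Ctrl values, as 5.76% of all tested genes did. Means of 70.7 ± 5.81 FPKM in Ctrl and 85.2 ± 5.12 FPKM in cKO gave a log2 difference of 0.27 (SE 0.11, 95% interval 0.00 to 0.53), with an unadjusted p of 0.0473 and a limma adjusted p of 0.641. At an unadjusted p below 0.05, 2.98% of all genes were higher in cKO and 4.71% lower. The value was 0.31 without A8 and 0.29 without A4, but 0.20 without A2 and 0.22 without A9. Its 95% interval included 0 whenever an A number other than A8 was left out. Its row overlaps that of Gm43622, and how reads at shared positions were assigned is not given in the sources used here.

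Hapln1 encodes cartilage link protein, which stabilises lecticans on hyaluronan. It measured 26.8 FPKM in A1, 24.2 FPKM in A2 and 34.9 FPKM in A8, and 33.2 FPKM in A4, 43.3 FPKM in A9 and 34.3 FPKM in A10. Here too A8 lay among the cKO values. The means were 28.6 ± 5.57 FPKM and 36.9 ± 5.56 FPKM (log2 difference 0.36, SE 0.18, 95% interval -0.06 to 0.78, limma adjusted p = 0.717), and the difference was 0.51 without A8 (adjusted p = 0.243) and 0.43 without A4. Leaving out A2 or A9 lowered the difference to 0.25 and 0.24. Its row overlaps that of Gm8546.

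Bcan, Ptprz1, Cspg5 and Hapln1 were each lowest in control A2 and highest in A9 of cKO. The ratio of the highest A number to the lowest was 1.45 for Bcan, 1.32 for Ptprz1, 1.42 for Cspg5 and 1.79 for Hapln1. Astrocyte markers had a mean log2(FPKM + 1) of 7.80 ± 0.119 in Ctrl and 7.98 ± 0.0496 in cKO (two-sided exact permutation p = 0.1), with 10 of 12 higher in cKO and 0 past the adjusted threshold, and A9 was the highest there as well (8.03). The part of these levels in the 4 genes was not tested.

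**Figure D2:**
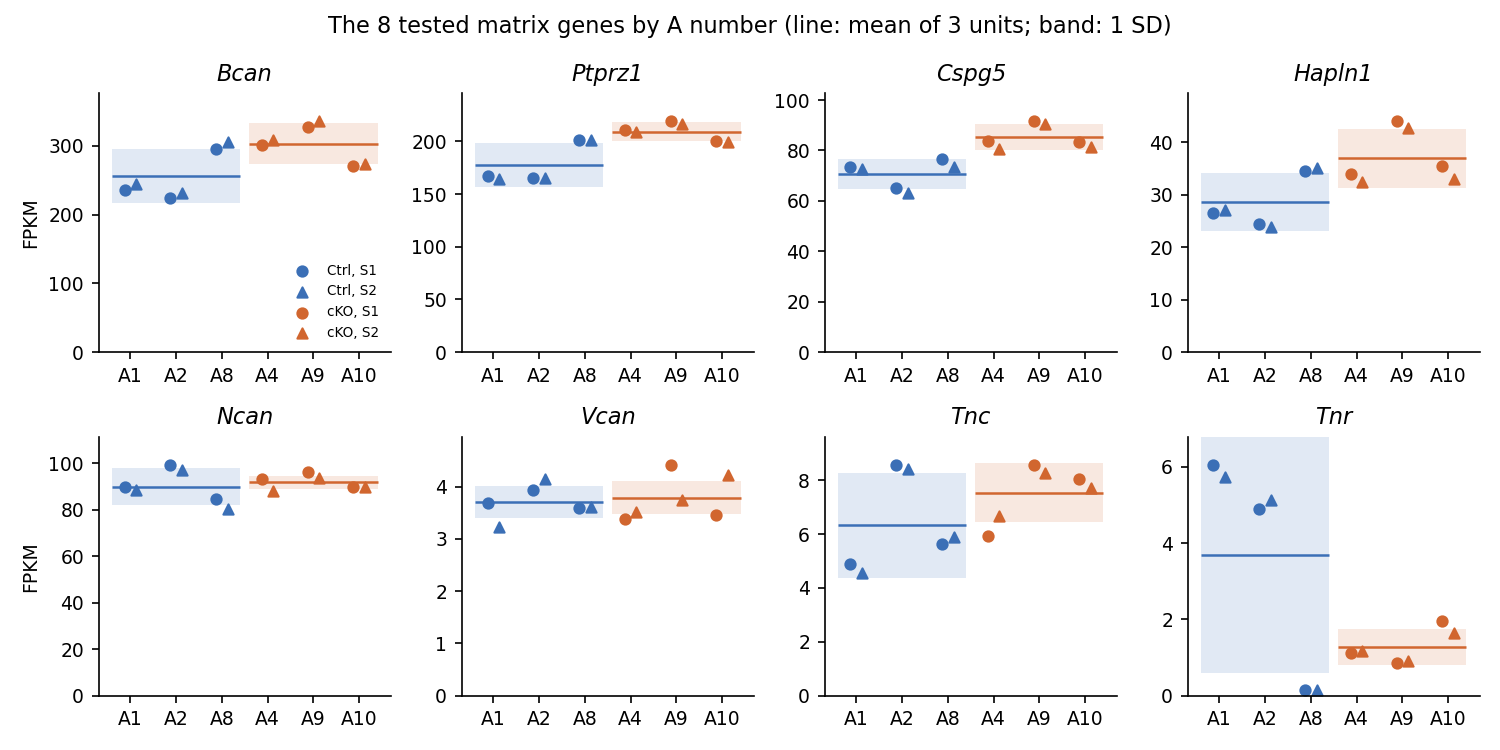
FPKM by A number for the 8 genes above the low-value filter, with S1 as circles and S2 as triangles, the group mean as a line and 1 SD as a band (n = 3). S1 and S2 lie close together, and control A8 lies near the cKO values for Bcan, Ptprz1 and Hapln1.

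The other lecticans differed little in level. Ncan encodes neurocan, which is most abundant in the developing brain and persists in the adult. It measured 89.1 FPKM in A1, 98.1 FPKM in A2, 82.4 FPKM in A8, 90.6 FPKM in A4, 95.02 FPKM in A9 and 89.7 FPKM in A10, so that all cKO values lay inside the Ctrl range. The log2 difference was 0.03 (SE 0.11, 95% interval -0.22 to 0.29, limma adjusted p = 0.978), and it was -0.03 without A8. Vcan encodes versican, whose V2 form is known from oligodendrocyte lineage cells. Its values ran from 3.45 FPKM in A4 to 4.08 FPKM in A9, and the difference was 0.03 (SE 0.17, 95% interval -0.37 to 0.43, adjusted p = 0.990).

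Acan encodes aggrecan, the lectican that marks perineuronal nets, and its levels were close to 0. Reads were found in A1 S1 (2), A1 S2 (6) and A2 S1 (2) of Ctrl and in 4 cKO libraries, A4 S1 (15.5), A4 S2 (29), A10 S1 (4) and A10 S2 (17). A2 S2, both libraries of A8 and both of A9 had 0 reads. Counted in single reads, this allows up to 0.0230 FPKM in A9 S1. Some recovered values, such as the 15.5 in A4 S1, are not whole, and no other gene of the table overlaps Acan. Hapln3, 2 bases from its end, had 89.5 reads in the same library, and a read shared by the 2 genes was not tested. With no low-value filter the log2 difference was 0.06 (limma adjusted p = 0.820).

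Within the lecticans, brevican transcripts made up 73.0% ± 4.397 of the summed FPKM in Ctrl and 75.9% ± 1.36 in cKO (SD, n = 3). Neurocan made up 25.9% and 23.1%, and versican 1.06% and 0.953%. The Bcan to Ncan ratio was 2.89 ± 0.685 in Ctrl and 3.30 ± 0.239 in cKO, and the highest of the 6 values, 3.65, was that of control A8, so the groups overlapped. Each lectican gene lay next to the gene of a link protein with 0 coding genes between them in the deposited table: Vcan and Hapln1 on chromosome 13 (43659 bases apart), Bcan and Hapln2 on chromosome 3 (21519 bases), Ncan and Hapln4 on chromosome 8 (2222 bases) and Acan and Hapln3 on chromosome 7 (2 bases). The levels of such neighbours were far apart, with Vcan at a mean of 3.74 FPKM beside Hapln1 at 32.8 FPKM.

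**Figure D3:**
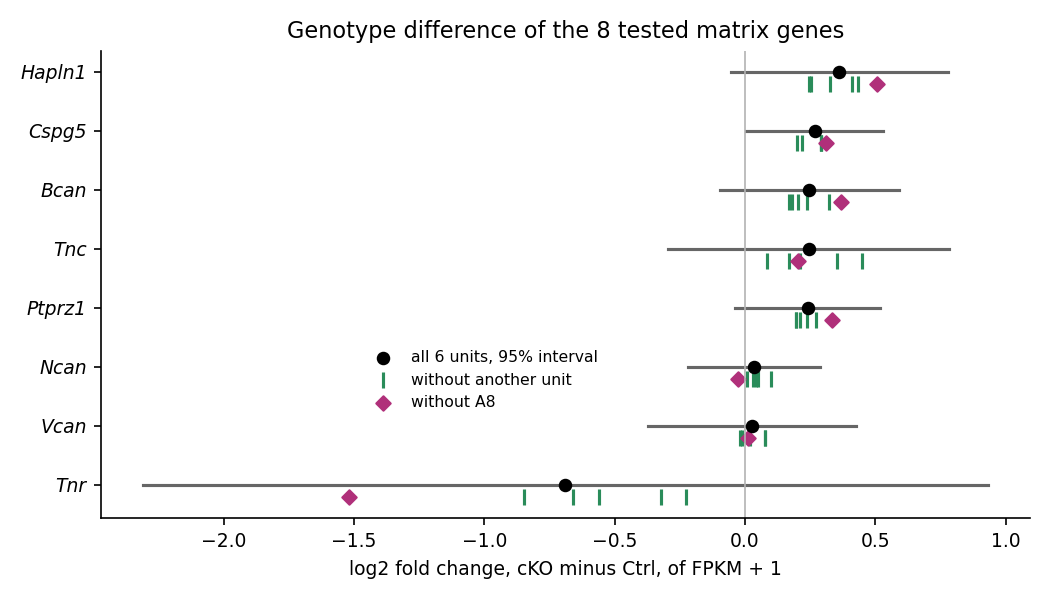
Log2 difference of cKO from Ctrl for the 8 tested genes, with its 95% interval, the values with each A number left out as ticks and the value without A8 as a diamond. 7 of 8 estimates lie above 0, every interval but that of Cspg5 includes 0, and Tnr has the widest interval.

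Tnr encodes tenascin-R, which crosslinks lecticans at their far end and is a component of perineuronal nets. It measured 5.89 FPKM in A1, 5.01 FPKM in A2 and 0.147 FPKM in A8 of Ctrl, and 1.16 FPKM in A4, 0.877 FPKM in A9 and 1.81 FPKM in A10 of cKO. A1 and A2 were above every cKO value and A8 below every one, and the highest A number was 40.1 times the lowest. The means of 3.68 ± 3.09 FPKM in Ctrl and 1.28 ± 0.477 FPKM in cKO gave a log2 difference of -0.69 (SE 0.68, 95% interval -2.31 to 0.93, limma adjusted p = 0.896). Without A8 it was -1.52 (adjusted p = 0.131). Without A1 it was -0.22 and without A2 -0.32, so the size of the difference rested on single A numbers. The Tnr row overlaps that of Gm38039.

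The extremes of Tnr over A numbers had A1 and A2 highest and A8 lowest. They were met by 9 of the 74 cell type markers listed, at any level, and by 6.03% of genes past the low-value filter. The 9 were Gpr17 and Lhfpl3 among the 7 precursor markers, Dcx and Eomes among the 8 stem and progenitor markers, and 5 more. Stmn2 was the 1 of 10 neuronal markers among them, and S100b, Ly6c1, Rgs5 and Foxj1 were in other lists. Lhfpl3, Dcx, Eomes and Stmn2 are below that filter. Gpr17, a receptor of committed oligodendrocyte precursors, measured 2.16 FPKM in A1, 2.54 FPKM in A2 and 0.0135 FPKM in A8, and from 0.353 to 0.834 FPKM in cKO. Stmn2, a neuronal gene, measured 0.967 FPKM in A1, 1.122 FPKM in A2 and 0 in A8, and from 0.127 to 0.346 FPKM in cKO. Of the other neuronal markers, Slc17a7 and Nefl were instead highest in A8 (0.433 and 2.18 FPKM).

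The other 5 precursor markers had other orders. Olig2 was highest in A8 (32.9 FPKM, against 25.7 FPKM in A1), Olig1 was higher in A8 (79.5 FPKM) than in A1 (75.005 FPKM), and Pdgfra and Cspg4 were higher in A10 of cKO (1.29 and 2.42 FPKM) than in control A1 (0.523 and 2.30 FPKM). Sox10 was higher in A8 (12.6 FPKM) than in any cKO A number. The 7 had a mean log2(FPKM + 1) of 2.89 in Ctrl and 2.35 in cKO (two-sided exact permutation p = 0.2) and summed to between 127 and 168 FPKM in Ctrl and between 77.6 and 106 FPKM in cKO. None of the 10 oligodendrocyte markers had the extremes of Tnr, and their score was 6.81 in A1, 6.95 in A2 and 5.78 in A8, and 4.17 to 5.44 in cKO. Hapln2, the link protein of the node of Ranvier, was at 23.1 FPKM in A1, 15.8 FPKM in A2 and 14.0 FPKM in A8, and at 3.68, 3.41 and 9.83 FPKM in A4, A9 and A10. The part of other cells in the Tnr values was not tested.

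**Figure D4:**
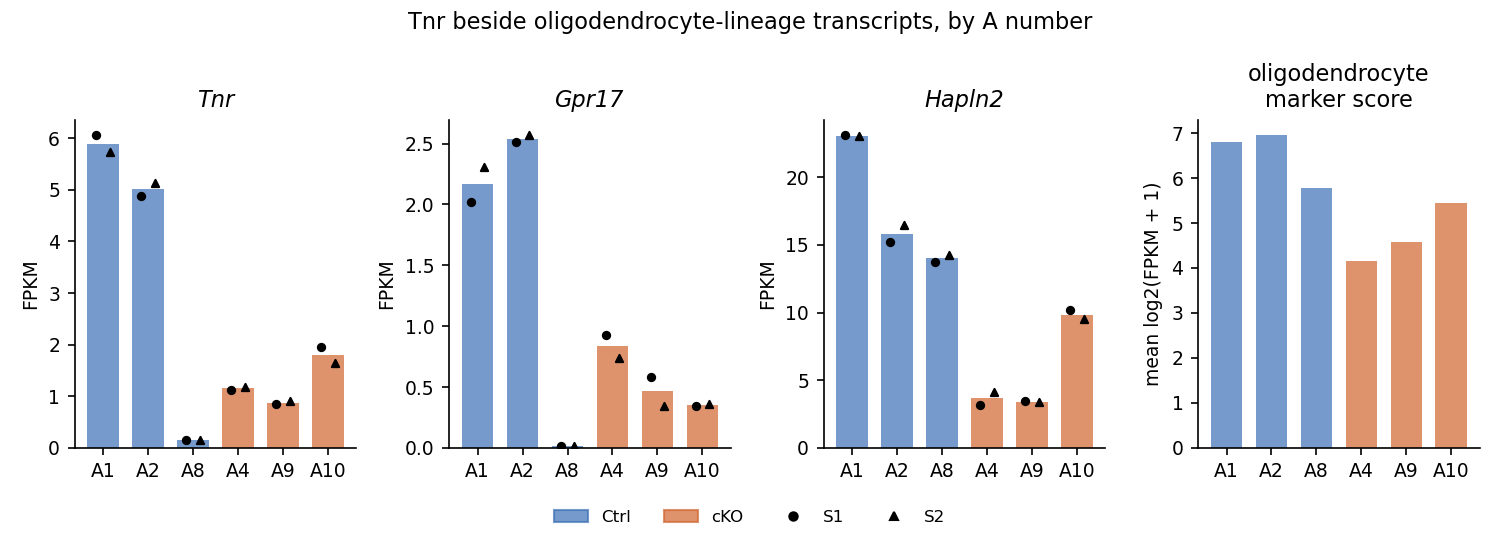
FPKM of Tnr, Gpr17 and Hapln2 by A number (bars, mean of S1 and S2; points, each library) and the mean log2(FPKM + 1) of 10 oligodendrocyte markers. Tnr and Gpr17 are near 0 in control A8 (0.147 and 0.0135 FPKM), while Hapln2 and the marker score are not.

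Tnc encodes tenascin-C, which is made by immature and reactive astrocytes. It measured 4.72 FPKM in A1, 8.50 FPKM in A2 and 5.75 FPKM in A8, and 6.30 FPKM in A4, 8.42 FPKM in A9 and 7.88 FPKM in A10. Control A2 was the highest of the 6 and control A1 the lowest. The log2 difference was 0.24 (SE 0.23, 95% interval -0.29 to 0.78, limma adjusted p = 0.885). It was 0.082 without A1 and 0.45 without A2. The ratio of Tnc to Tnr was 0.800 in A1, 1.70 in A2 and 39.2 in A8, beside 4.39 to 9.62 in cKO, and so followed Tnr more than Tnc.

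Has2 encodes the hyaluronan synthase that makes long chains. Its reads numbered 15.5, 22.5, 8 and 28 in the libraries of A1 and A2, and 33, 38.5, 37 and 67 in those of A4 and A10. All 4 libraries of A8 and A9 had 0 reads, as they did for Acan. Counted in single reads, a count of 0 in A8 S1 allows up to 0.0361 FPKM. Levels were 0.118 ± 0.102 FPKM for Ctrl and 0.273 ± 0.259 FPKM for cKO (SD, n = 3), with a log2 difference of 0.17 with no low-value filter (limma adjusted p = 0.822).

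Has2 had lower levels in A8 and A9 than in the other 4 A numbers. The same was found for 15 of the 74 cell type markers, at any level, and for 13.9% of genes past the low-value filter. These included 5 of 5 ependymal markers, whose score was 3.66 in A8 and 3.39 in A9. Their score was higher in A1 and A2 (5.48 and 5.26) than in A10 and A4 (4.88 and 4.57), whereas Has2 was higher in A10 and A4. The 15 also included 3 of 8 stem and progenitor, 2 of 5 mural and 1 of 5 fibroblast markers, and S100b, Pvalb, C1qb and Tek. Acta2, a mural gene, was at 2.62 and 2.88 FPKM in A8 and A9, from 12.1 to 17.5 FPKM in A1, A2 and A4, and at 22.9 FPKM in A10, where Has2 was highest too. Rgs5, the other mural gene, was instead highest in Ctrl (34.8 FPKM, against at most 32.9 FPKM in cKO). Lum, a fibroblast gene, was at 0 in A8 and A9 and highest in A10 (2.06 FPKM). The fibroblast score as a whole was 0.995 in A8 and 0.778 in A9, above A2 (0.724) and A4 (0.751). Dcn, another fibroblast gene, was higher in A8 (1.68 FPKM) than in A1 (0.740 FPKM). Endothelial markers were low in A8, A9 and A10 (mean log2(FPKM + 1) 0.638, 0.951 and 0.751) and lay between 2.54 and 3.01 in A1, A2 and A4. The part of these cells in the Has2 values was not tested.

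Libraries S1 and S2 of one A number were close. Over the tested genes r was 0.980 to 0.984 between them and 0.800 to 0.900 between A numbers. For none of the 8 genes did S2 differ from S1 at an adjusted p below 0.05 (limma with the A number as block), as 1.39% of all genes did. The largest S2 to S1 difference of any A number was 0.05 for Bcan and 0.23 for Vcan on the log2 scale, beside ranges of 0.54 and 0.19 between A numbers.

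The rest of the pathway was followed through 5 lists with 119 symbols, of which 118 were in the table and 85 passed the filter. None of the 85 passed the adjusted threshold, 55 had estimates above 0 and 30 below, and their median log2 difference was 0.06. Groups did not overlap for 8 genes higher in cKO and 10 lower, beside 5.76% and 7.22% of all genes. These lists hold genes that other cells of the sort also express.

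Among link proteins and hyaluronan genes, 7 of 12 were above 0 and 5 below. Tnfaip6, which encodes TSG-6, a protein that moves heavy chains onto hyaluronan and is induced by tumour necrosis factor in many cells, was at 28.8, 37.6 and 24.2 FPKM in A1, A2 and A8 and at 9.03, 11.8 and 14.2 FPKM in A4, A9 and A10. All Ctrl values were above all cKO values, at a log2 difference of -1.30 (SE 0.22, limma adjusted p = 0.318). Hapln2 differed by -1.59 (adjusted p = 0.347), and the hyaluronidase Hyal1 was at 5.45 ± 0.340 FPKM and 7.98 ± 0.751 FPKM (0.47, adjusted p = 0.487). Ugp2, which makes UDP-glucose, was at 77.9 and 88.3 FPKM (0.18, adjusted p = 0.860).

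Chondroitin sulfate synthesis had 15 of 20 genes above 0. Chst14, the dermatan 4-O-sulfotransferase, was at 0.515 ± 0.518 FPKM in Ctrl and 2.78 ± 0.223 FPKM in cKO, a log2 difference of 1.38 (adjusted p = 0.389, limma). It was 2.82 with a pseudocount of 0.1 and 4.41 with voom on recovered reads, and A8 was at 0. Papss2, which makes the sulfate donor, was at 25.9 ± 4.56 FPKM and 36.4 ± 2.33 FPKM (0.49, adjusted p = 0.495). Xylt1, which starts the chain, was at 23.7 FPKM and 30.7 FPKM (0.37, adjusted p = 0.766), and B3gat3, which completes the linker, was at 10.2 and 7.23 FPKM (-0.46, adjusted p = 0.665).

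Among 14 proteases and inhibitors, 9 were above 0. Adamts4, a protease that cuts brevican and aggrecan, was at 10.9, 15.9 and 5.83 FPKM in A1, A2 and A8 and at 1.78, 2.72 and 4.43 FPKM in A4, A9 and A10. Ctrl values again all lay above cKO values, at a log2 difference of -1.54 (SE 0.39, limma adjusted p = 0.380). Adamts9 was at 3.17 ± 0.335 FPKM and 4.62 ± 0.157 FPKM (0.43, adjusted p = 0.609), and Timp3, an inhibitor, at 50.6 and 58.1 FPKM (0.20, adjusted p = 0.840). Timp2, another inhibitor, was at 27.2 and 25.5 FPKM (-0.05, adjusted p = 0.985), above 0 without A1 or A2 (0.09 and 0.08).

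Of receptors and partners, 9 of 15 were above 0. Nfasc, neurofascin, was at 20.1 ± 4.86 FPKM in Ctrl and 8.98 ± 3.21 FPKM in cKO (-1.10, adjusted p = 0.383, limma), and Ptprd, a receptor phosphatase, at 20.3 ± 6.18 FPKM and 9.97 ± 2.02 FPKM (-0.93, adjusted p = 0.434). Ptn, pleiotrophin, a ligand of Ptprz1, was at 234 and 269 FPKM (0.19, adjusted p = 0.828), and Mdk, midkine, another ligand, at 22.4 and 31.5 FPKM (0.46, adjusted p = 0.657). Sdc4, a syndecan, was at 128 and 144 FPKM (0.19, adjusted p = 0.889).

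In the last list 15 of 24 were above 0: Spock3, a testican, was at 8.49 ± 2.76 and 2.06 ± 0.989 FPKM (-1.64, adjusted p = 0.320), and Sdc2, another syndecan, at 45.6 ± 3.87 and 62.7 ± 6.30 FPKM (0.45, adjusted p = 0.425). Spock1, another testican, was at 7.15 and 3.26 FPKM (-0.98, adjusted p = 0.446). Sparcl1, hevin, was at 2042 and 2107 FPKM (0.04, limma adjusted p = 0.981), and Sparc at 96.5 and 86.8 FPKM (-0.13, adjusted p = 0.961).

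Tnfaip6, Adamts4, Nfasc and Spock3 passed the threshold in the limma fit of 12 libraries with the A number as random effect (adjusted p = 0.0381, 0.0381, 0.0361 and 0.0223), where the correlation between S1 and S2 was estimated over genes as 0.915. In that fit 4 of 85 wider genes passed, beside 0.639% of all genes. It counts 12 libraries for 6 A numbers with 1 correlation for all genes. Its p-values are therefore too small for genes whose S1 and S2 lie closer than that. For Nfasc the largest S2 to S1 difference was 0.04, beside SDs between A numbers of 0.36 (Ctrl) and 0.45 (cKO). For Tnfaip6 it was 0.27, beside 0.31 and 0.30. The limma fit on averages gave the 4 genes adjusted p of 0.318, 0.380, 0.383 and 0.320. With a replicate block for the S number, Spock3 alone of the 85 passed (adjusted p = 0.0354), beside 0.456% of all genes. The 10 oligodendrocyte markers lay lower in cKO too, all 10 at an unadjusted p below 0.05 and 9 of 10 with no overlap, beside 4.71% and 7.22% of all genes. Their part in the lower values of these genes was not tested.

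**Figure D5:**
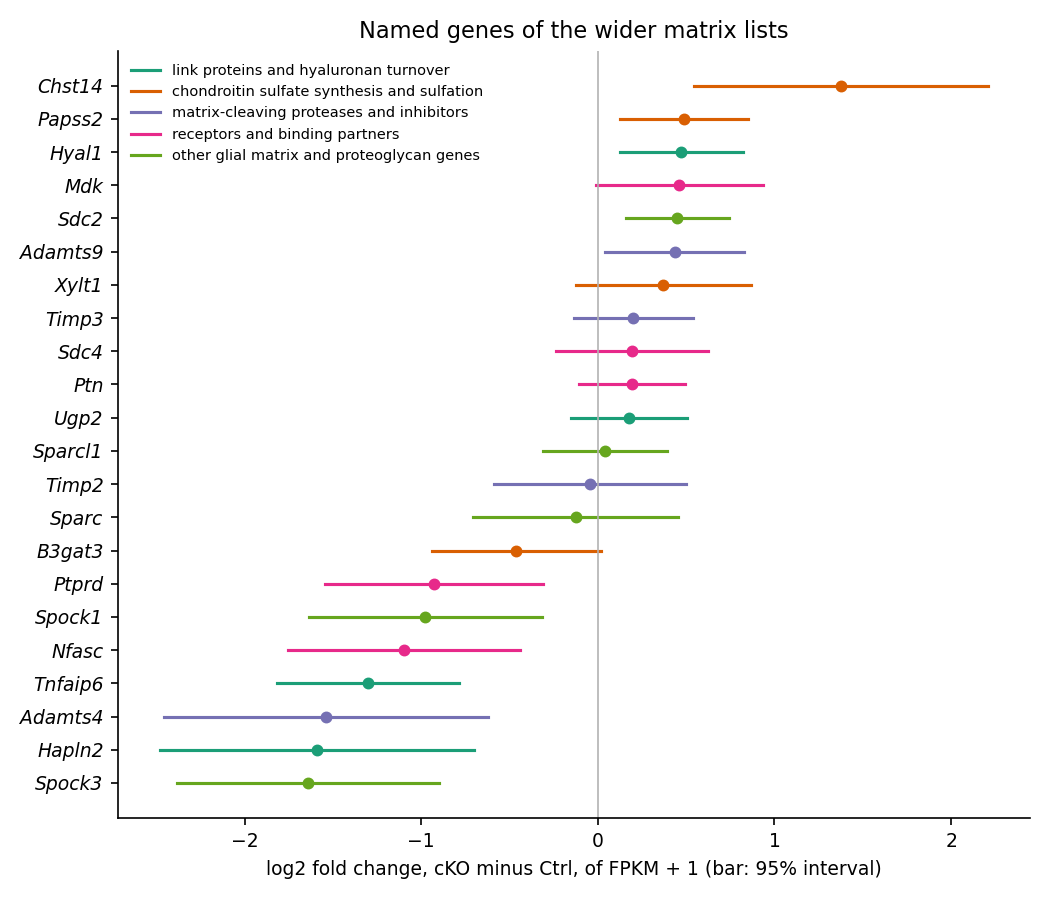
Log2 difference of cKO from Ctrl with its 95% interval for the named genes of the 5 wider lists. The intervals of Tnfaip6, Hapln2, Adamts4, Nfasc, Ptprd, Spock3 and Spock1 lie below 0, those of Hyal1, Chst14, Papss2, Adamts9 and Sdc2 lie above 0, and none of the genes passes the adjusted threshold.

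Genes whose levels over the 6 A numbers were most like those of each member were found by Pearson r of log2(FPKM + 1). The r is given as a description over 6 points that share library and genotype. Among 6775 genes with a mean of at least 5 FPKM, these were Lpar4 (r 0.985) and Lcat (0.983) for Bcan, Slc46a1 (0.993) and Arsk (0.992) for Ptprz1, Tnrc6b (0.993) and Naa80 (0.985) for Cspg5, and Rida (0.988) and Cadm1 (0.986) for Hapln1. For Ncan they were Rpl37a (0.997) and Bckdha (0.990), for Vcan Tmem43 (0.996) and Atf1 (0.968), for Tnc Mcm3ap (0.982) and Gna13 (0.971), and for Tnr Fam107b (0.996) and Vldlr (0.994). For Tnr, 78 genes had r above 0.95, against 58 for Bcan and 6 for Vcan.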

How the data were processed

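RNA was measured in 12 libraries, S1 and S2 for each of 3 Ctrl and 3 cKO A numbers. Per the labels' protocols, RNA was turned into cDNA and libraries by the SMART-Seq V4 method, and a HiSeq 2500 read both ends for 125 bases. The submitters' processing notes name FastQC, STAR, featureCounts, DESeq2, mm10 and GRCm38, with no roles or versions. The authors deposited FPKM values with the gene length; their scaling to 1000000 assigned fragments was checked from the values. Coordinates are those of the deposited table, whose annotation release is not given in the sources used here. The 310 rows with no symbol were kept under their gene identifier and met the same low-value filter as the rest. Rows of 147 shared symbols were summed.

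The unit of 1 read was recovered from the steps of low values. Between 82.8% and 86.3% of genes per library were then whole within 0.02 read, so voom on these reads was run as an alternative only. The floor for a count of 0 is 3 reads, covering counting error of single reads only. Of whole counts from 1 to 20, 72.6% to 80.4% per library were even. Where reads come in pairs, this floor is too low. A pseudocount of 1 was used on the log2 scale, which understates changes of low genes, and genes with a mean under 1 FPKM were filtered. S1 and S2 were averaged on the log2 scale, and cKO was compared with Ctrl by limma 3.58.1 (R 4.3.3, eBayes with trend, two-sided), with Benjamini-Hochberg adjustment over 17540 genes and a threshold of 0.05. Marker scores were compared by an exact permutation test over 20 arrangements. The fits were tested on simulated data.

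The members and lists were chosen with earlier results of these data known. Wider genes were named as the 3 of smallest p and 2 of highest FPKM in each list, and the markers named beside Tnr and Has2 were chosen after their values were seen. Alternatives changed the pseudocount, filter, scaling (TPM, upper quartile, median of ratios), eBayes settings, averaging, S1 or S2 alone, a random effect with and without a replicate block, array weights, voom and each A number left out.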

Additional observations from a re-analysis of the deposited data

Results flagged for a closer look

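Acan and Has2 were too low for the test and are listed for signal above that of the control libraries. The highest cKO library held 0.110 FPKM of Acan (29 reads, A4 S2) beside a highest Ctrl value of 0.0258 FPKM, and 4 of 6 cKO libraries, those of A4 and A10, were above it. Has2 reached 0.543 FPKM (67 reads, A10 S2) beside 0.235 FPKM, again in the 4 libraries of A4 and A10. Both libraries of A9 had 0 reads of either gene. Among the S2 to S1 differences of the 8 tested genes, no A number stood apart by Dixon's criterion.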

How the results depend on the processing

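The 8 members kept an adjusted p above 0.05 in the genotype fits under every alternative run, with log2 differences of 0.17 to 0.37 for Bcan, 0.17 to 0.33 for Ptprz1, 0.19 to 0.35 for Cspg5, 0.24 to 0.51 for Hapln1, 0.08 to 0.45 for Tnc and -1.52 to -0.22 for Tnr. Their lowest adjusted p were 0.266, 0.211, 0.251, 0.243, 0.749 and 0.131. Signs turned for Ncan with TPM scaling (-0.042) and array weights (-0.000538) and for Vcan with TPM scaling (-0.040). With the A number as random effect over 12 libraries, 4 of the 85 wider genes passed the threshold, as did 112 of 17540 genes. The limit on the p-values of this fit is given above. Adding the S number as replicate block left 1 (Spock3, adjusted p = 0.0354) and 80 of all genes; the S numbers pair libraries of the same A number, not A numbers, and r of S2 to S1 differences between A numbers was 0.133 to 0.190. For S2 against S1, 1 member passed at a mean of at least 5 FPKM (3.93% of all genes), 2 with upper quartile scaling (1.46%) and 1 with median-of-ratios scaling (1.43%). Timp2 turned to 0.031 with upper quartile scaling and Sparcl1 to -0.035 with TPM scaling. The cause was not tested. Leaving out each A number gave -0.027 to 0.098 for Ncan, -0.018 to 0.078 for Vcan, -0.31 to 0.090 for Timp2, -0.000604 to 0.32 for Sdc4, -0.053 to 0.13 for Sparcl1 and -0.38 to 0.021 for Sparc. The same step, added after seeing the data, gave cKO minus Ctrl marker scores of -0.028 to 0.27 (mural), -0.15 to 0.31 (fibroblast) and -0.33 to 0.037 (neural stem and progenitor). Tnr moved to -1.20 with array weights and -0.35 with voom, and Chst14 to 4.41 with voom. Array weights gave A8 the lowest weight, 0.341. Low read counts limit Acan and Has2, and the 3 A numbers per genotype limit the rest. A8 had 0 reads of both genes at 19598877 (S1) and 31499016 (S2) recovered reads, so its zeros did not go with low depth. It had 21342 and 21572 genes above 0, against 23669 to 26668 in the libraries of the other A numbers. The part of this in the low values of A8 was not tested.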
